A study of Mus musculus with 12 samples.

Results

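The microRNA cluster of the imprinted Dlk1-Dio3 domain on mouse chromosome 12 was followed in wild type and Drosha-deficient embryonic stem (ES) cells. Its members are the table entries whose gene name is Mir followed by a digit and whose interval lies between 109.5 and 109.8 Mb of chromosome 12 in the mm10/GRCm38 build. The rule found 35 of the 36883 rows of each table, and 318 microRNA rows lay elsewhere in the genome. The members span chr12:109571990-109729402, which is 157 kb. The study sequenced RNA and mapped DNA methylation in ES cells of 3 genotypes, and the comparison here is that of Drosha-deficient with wild type RNA. Total RNA was separated into a long and a short fraction, mRNA was purified on oligo-dT particles, and libraries of every fraction were made with a small RNA kit. Both genotypes were grown in serum with leukemia inhibitory factor. The labels of the RNA samples give the genotype alone. Those of the methylation samples name AB1 cells of the 129Sv/Ev background and say that the Drosha-deficient cells were derived from AB1, without giving the allele or the number of clones. The table called long RNA was assigned to the total RNA samples by elimination, because no sample title says long RNA. There was 1 library per genotype and fraction, so no difference below has a replicate check or a test, and each compares 2 libraries.

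Drosha, together with its partner Dgcr8, cuts hairpins out of nuclear primary transcripts. Dicer1 then trims each released hairpin to a mature microRNA, which finds its target RNAs mainly through the seed at bases 2 to 8. The Dlk1-Dio3 microRNAs are known to lie in long noncoding transcripts made from the maternal chromosome (Meg3, an antisense transcript of Rtl1, Rian and Mirg), while Dlk1, Rtl1 and Dio3 are expressed from the paternal one. By position the members formed 3 blocks. The first held 13 members inside the RefSeq span of Rtl1 at chr12:109564900-109604418: Mir673, Mir493, Mir337, Mir540, Mir665, Mir3070a, Mir3070b, Mir431, Mir433, Mir127, Mir434, Mir432 and Mir136. These lie on the strand opposite to Rtl1. Mir882 lay alone after a gap of 86.8 kb. The block from Mir379 to Mir544 began 26.8 kb further on and held 21 members. RefSeq lists 60 microRNA genes in the interval. The 35 members are among them, 14 others lie inside the row of Mirg, and 11 are neither; the last 25 were not analysed here as microRNAs.

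RefSeq (GRCm38.p6) gave 66 mature sequences for the 35 members, with 61 different seeds. Those of the most abundant members, of members that share a seed and of the members that behaved differently are printed 5′ to 3′, with the seed in capitals.
miR-379-5p: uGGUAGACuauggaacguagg
miR-1193-5p: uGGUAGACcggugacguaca
miR-379-3p: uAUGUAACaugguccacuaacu
miR-411-3p: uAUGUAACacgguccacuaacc
miR-411-5p: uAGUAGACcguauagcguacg
miR-758-5p: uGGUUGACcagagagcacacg
miR-1197-5p: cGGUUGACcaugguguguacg
miR-381-3p: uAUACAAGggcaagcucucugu
miR-300-3p: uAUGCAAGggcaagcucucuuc
miR-543-3p: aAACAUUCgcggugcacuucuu
miR-495-3p: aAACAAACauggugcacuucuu
miR-127-3p: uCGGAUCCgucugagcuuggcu
miR-434-3p: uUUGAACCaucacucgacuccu
miR-136-5p: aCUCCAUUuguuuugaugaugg
miR-3070-5p: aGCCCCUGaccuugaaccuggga
miR-3070-3p: uGGUGCUAccgucagggguaga
miR-3070-2-3p: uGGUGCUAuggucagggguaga
Mir379 shares the seed GGUAGAC with Mir1193 and the seed AUGUAAC with Mir411. Mir758 and Mir1197 share GGUUGAC, and Mir3070a and Mir3070b share both of their seeds (GCCCCUG and GGUGCUA). The 7 genes of these 5 shared seeds all have rows among the members. Counted base by base from the 5′ end, miR-379-3p and miR-411-3p differ at 2 of 22 bases, miR-300-3p and miR-381-3p at 3 of 22, and miR-543-3p and miR-495-3p at 4 of 22. The median GC content was 56.5% over the 25 mature sequences of the Rtl1 span and 46.4% over the 40 from Mir379 to Mir544. Of the 66 sequences, 30 (45.5%) start with U. For 7 members a seed is shared with a mouse microRNA outside the interval, among them miR-495-3p (AACAAAC) with miR-1192 and miR-329-3p (ACACACC) with miR-362-3p. The tables hold 1 value per hairpin row, so the arms of a hairpin cannot be told apart.

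Values are FPKM (fragments per kilobase of row, scaled to the mapped fragments of the library), a level per length. A difference is log2((Drosha-deficient + 1)/(wild type + 1)), with both levels in FPKM, and so understates the change of low rows. A row counts as measured where the authors' program returned an estimate and either library reached 1 FPKM, and as higher or lower where the difference is at least 2-fold. Most low values of short rows were whole multiples of a smallest step that depends on row length. That step was taken as the value of 1 fragment and turned FPKM into estimated fragments for the 29 members with an interval of their own. The other 6, Mir431, Mir433, Mir127, Mir434, Mir432 and Mir136, are listed at 1 interval shared with Rtl1, chr12:109589194-109600330 (11137 bases). Their values differ, but their row lengths are not known and no fragments could be estimated for them. Where a row is at 0, a bound was taken at 3 fragments in that library. This bound leaves out the counting error of the other library. Intervals on fragments are exact Poisson 95% intervals and those on ratios exact binomial ones; both cover counting error only, and PCR copies are not independent molecules.

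The Drosha row checked the labels: it stood at 42.1 FPKM in the wild type mRNA library and 6.22 FPKM in the Drosha-deficient one, a 6.77-fold lower level. The long RNA libraries gave 21.2 and 4.34 FPKM for it. The row covers the whole gene, and the labels do not say which part of it is altered. Dgcr8, whose own mRNA is a known Drosha substrate, was at 12.4 and 73.5 FPKM in mRNA. Dicer1 was at 16.6 and 26.0 FPKM there. Of the 15 genes of microRNA processing listed, 14 were measured in mRNA, with 4 higher and 1 lower. All 10 ES cell markers were measured in mRNA, with 1 higher and 0 lower. Over all rows measured in mRNA 8.64% were higher and 7.93% lower. Of 17 fibroblast markers, which a feeder layer would add, 13 were measured in mRNA and 8 were lower, with summed levels of 387 FPKM in wild type and 126 FPKM in Drosha-deficient cells. Vim, called neither in mRNA, held 154 and 90.5 FPKM of these sums. In long RNA 9 of 12 were lower, against 6.89% of all rows measured there, with sums of 244 and 71.4 FPKM. Lum was listed at 0 in wild type mRNA and in Drosha-deficient long RNA. In short RNA 2 of the 17 were measured, 1 lower and 1 neither. Of those measured, 5 in mRNA and 3 in long RNA were neither. The part of these markers in the results of the members was not tested. In such bulk samples fewer cells of a type and less RNA per cell cannot be told apart.

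In short RNA nearly all members were far lower in the Drosha-deficient library. Of 31 measured members 30 were lower and 1 was higher, and the median difference was -9.68. Over the 2597 rows measured in that table, 18.4% were lower and 14.8% higher, with a median of -0.03. The summed level of the members went from 354791 to 1388 FPKM. As a share of all microRNA FPKM, they held 10.6% in wild type and 0.480% in Drosha-deficient cells. A single row, Mir5099, singled out after its values were seen, held 71.7% of the Drosha-deficient microRNA FPKM (151520 FPKM in wild type and 207566 FPKM in Drosha-deficient cells). Without it the members held 11.1% and 1.70%. The 29 members with fragment estimates held 42459 fragments (42056 to 42865) in wild type and 36 (25.2 to 49.8) in the Drosha-deficient library, 1179-fold fewer and not scaled for depth. The 7 of these in the Rtl1 span went from 2348 to 4 fragments, and the 21 from Mir379 to Mir544 from 40111 to 32.

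**Figure D1:**
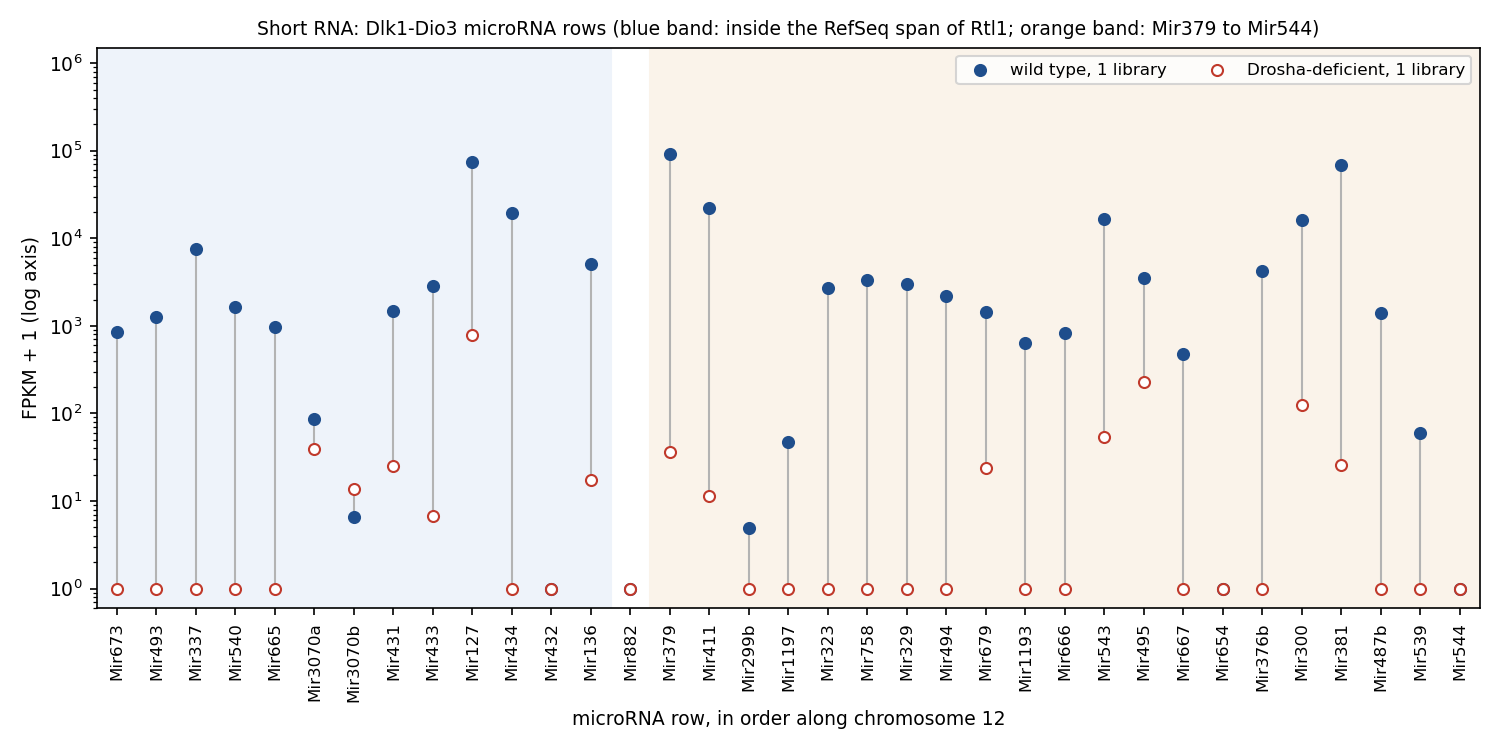
Short RNA level of each of the 35 members in order along the chromosome, as FPKM + 1 on a log axis, with filled points for the wild type library and open points for the Drosha-deficient one. In 30 members the open point lies below the filled one, in 18 of them at 0 FPKM (drawn at 1), and in Mir3070b it lies above.

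Most of the members' wild type signal lay in a few of them. Mir379 (chr12:109709056-109709135), the most abundant, stood at 91381 FPKM in wild type and 35.0 FPKM in Drosha-deficient cells, an estimated 13964 and 2 fragments. The ratio was 2609-fold, with a counting interval of 725- to 21625-fold. Mir127, which RefSeq places antisense to Rtl1, stood at 74500 and 796 FPKM, 93.6-fold lower. Mir381 (chr12:109726812-109726901) stood at 68060 and 24.7 FPKM, an estimated 12228 and 2 fragments and a ratio of 2761-fold (765 to 22816). These 3 members made up 65.9% of the members' summed wild type FPKM, and the first 5 made up 77.8%. Among all microRNA rows, Mir379, Mir127 and Mir381 ranked 8, 10 and 11 by wild type level.

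The next members in wild type level were also far lower. Mir411 (chr12:109710175-109710270), which shares a seed with Mir379, stood at 22328 and 10.3 FPKM, or 4373 and 1 fragments, a ratio of 2158-fold (387 to 85237). Mir434 stood at 19601 FPKM in wild type and was listed at 0 in Drosha-deficient cells. Mir543 stood at 16747 and 52.5 FPKM, or 2559 and 3 fragments, 319-fold lower (109 to 1552). Mir300 stood at 16342 and 123 FPKM, or 2936 and 10 fragments, 133-fold lower (72.0 to 277). Mir337 stood at 7635 FPKM and was listed at 0, which is at least 253-fold lower at 3 fragments. Among all microRNA rows, Mir411, Mir434, Mir543, Mir300 and Mir337 ranked 16, 18, 23, 24 and 28 by wild type level. Mir136 stood at 5128 and 16.2 FPKM, and Mir376b at 4275 FPKM and listed at 0. The counting intervals of Mir379, Mir381 and Mir411 overlapped, so the order of their ratios could not be told at this depth.

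Of the 31 measured members, 18 were listed at 0 FPKM in the Drosha-deficient library, against 5.01% of all measured rows. Their wild type levels ran from 3.96 to 19601 FPKM, with a median of 1323. Beside Mir434, Mir337 and Mir376b they were Mir758 (3319 FPKM in wild type), Mir329 (2992), Mir323 (2694), Mir494 (2184), Mir540 (1657), Mir487b (1391), Mir493 (1256), Mir665 (977), Mir673 (861), Mir666 (819), Mir1193 (641), Mir667 (476), Mir539 (58.5), Mir1197 (46.0) and Mir299b (3.96). For the 17 with an interval of their own, 3 fragments in the Drosha-deficient library correspond to 18.0 to 67.8 FPKM. Of these, 15 exceeded that bound in wild type and were at least 2.51-fold (Mir1197) to 253-fold (Mir337) lower. Mir539 (8 fragments in wild type) and Mir299b (1 fragment) did not, and their loss was not measurable at this depth. With zeros set to the bound, the median difference over 24 members with an interval of their own was -5.40, against -9.84 over the 26 as listed.

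What signal remained in Drosha-deficient short RNA lay in 13 members. Mir127 alone held 57.3% of the members' remaining FPKM, Mir495 16.4% and Mir300 8.88%. Mir495 (chr12:109718747-109718826) stood at 3534 FPKM in wild type and 228 FPKM in Drosha-deficient cells, an estimated 540 and 13 fragments. It kept 6.44% of its wild type level and was 15.5-fold lower (9.03 to 29.5). Mir543, whose 3p sequence is similar, kept 0.314%, with 3 fragments. The intervals of Mir495 and Mir300 did not overlap, nor did those of Mir495 and Mir543. Mir431 stood at 1481 and 23.9 FPKM, Mir433 at 2882 and 5.70 FPKM, and Mir679 at 1434 and 22.6 FPKM, where the last rests on 1 Drosha-deficient fragment.

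Mir3070a and Mir3070b stood apart from the other members. Their hairpins (chr12:109587943-109588031 and chr12:109588592-109588680) differ at 5 of 89 bases, so reads may have been split between them and their values are uncertain. Mir3070a stood at 84.8 FPKM in wild type and 38.1 FPKM in Drosha-deficient cells, or 15 and 3 fragments, 2.22-fold lower with an interval that spans no change (0.63 to 12). Scaled on the rows that are not microRNAs, it was no longer 2-fold lower. Mir3070b, the member called higher, stood at 5.65 and 12.7 FPKM, which is 1 fragment in each library. In estimated fragments, which are not scaled for depth, it was not higher. Mir432, Mir882, Mir654 and Mir544 were at 0 in both short RNA libraries.

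The value of 1 fragment differed between the libraries. In short RNA, 1 fragment of an 80-base row was worth 6.54 FPKM in wild type and 17.4 FPKM in Drosha-deficient cells, a ratio of 2.67, which fell to 1.59 at 120 bases. A like number of fragments in both libraries thus reads as higher FPKM in Drosha-deficient cells, more so in shorter rows, as for Mir3070b. At 80 bases the ratio was 1.21 in long RNA and 1.26 in mRNA. Of the rows with 2 to 50 estimated fragments, 100% came out whole within 0.05 in wild type short RNA and 86.2% in Drosha-deficient short RNA. In mRNA 88% did in wild type and 99.0% in Drosha-deficient cells, and in long RNA 100% did in both.

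**Figure D2:**
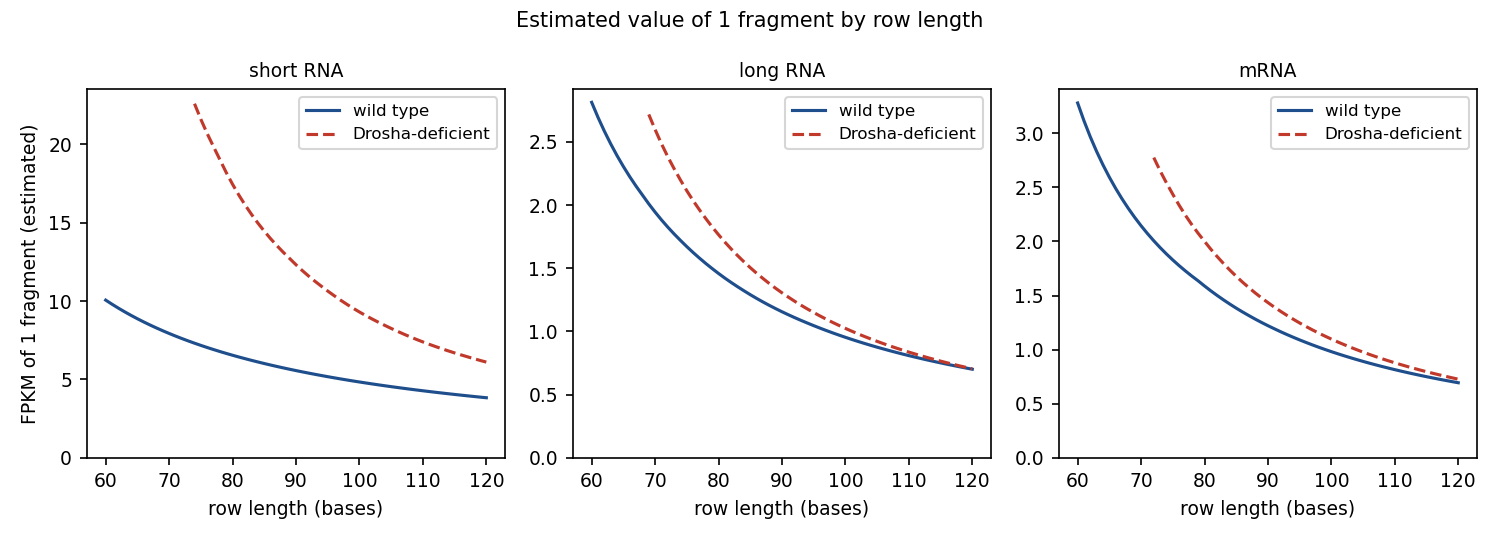
Estimated FPKM value of 1 fragment (y axis) by row length in bases (x axis) in the short RNA, long RNA and mRNA tables, with a solid line for wild type and a dashed line for Drosha-deficient cells. The lines lie farthest apart in short RNA, at 6.54 and 17.4 FPKM for an 80-base row, and the dashed lines start at the shortest row length that had values.

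Other microRNAs were lower as well. Of 125 other microRNA rows measured in short RNA, 115 were lower and 5 were higher, and their median was -5.08. All 7 rows of the miR-290 cluster, the main microRNA cluster of mouse ES cells, were lower, with a median of -5.0, and all 5 of the miR-302 cluster, with a median of -6.45. The members were at 0 in Drosha-deficient cells in 58.1% of measured rows and the other microRNAs in 60%. By wild type level, the members had the less negative median under 100 FPKM and the more negative one above it. Under 100 FPKM the median was -2.31 for 5 members, 3 of them at 0, and -4.37 for 52 others, 44 of them at 0. From 100 to 1000 FPKM it was -9.68 for 5 members, 5 of them at 0, and -7.31 for 25 others, 14 of them at 0. Over rows with 1000 to 10000 FPKM, it was -10.57 for 14 members (9 at 0) and -8.35 for 30 others (13 at 0). Over rows with 10000 FPKM or more, it was -10.94 for 7 members (1 at 0) and -6.55 for 18 others (4 at 0). A row at 0 takes its difference from its wild type level alone, so medians with many zeros do not measure the depth of the loss. This compares 1 pair of libraries, and the members share their transcripts, so these gaps were not tested.

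**Figure D3:**
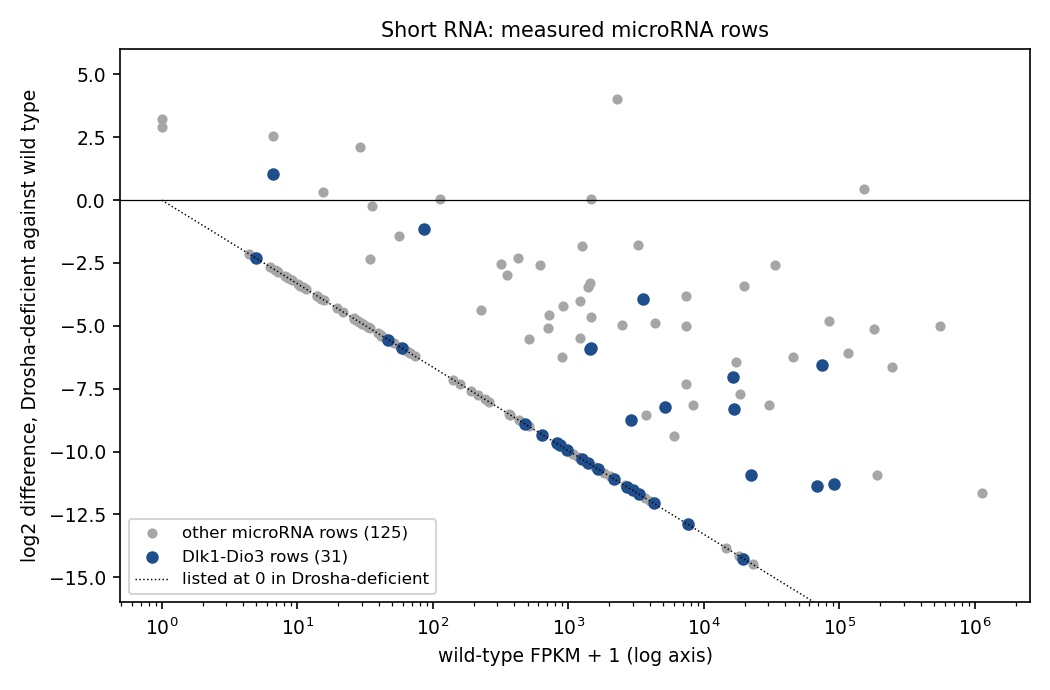
Difference in short RNA (y axis, log2 of Drosha-deficient against wild type with 1 FPKM added) against wild type FPKM + 1 (x axis, log) for the 31 measured members (blue) and 125 other measured microRNA rows (grey). Rows on the dotted line are at 0 in Drosha-deficient cells; above 10000 FPKM most members lie lower than most of the others, with medians of -10.94 and -6.55.

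In long RNA the members moved in both directions. The 33 measured members split into 17 that were lower, 8 that were higher and 8 called neither. Their median was -1.31. Over the 13933 rows measured in that table, 6.89% were lower and 6.26% higher, and the median was -0.04. Other microRNA rows had 45 of 81 lower and 15 higher, with a median of -1.32. Members with fragment estimates held 355 fragments in wild type (319 to 394) and 89 in Drosha-deficient cells (71.5 to 110). With zeros set to the bound, the median was -1.02 over 24 of them.

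The members lower in long RNA were mostly those abundant in wild type short RNA. Of the 15 members above the median wild type short RNA level of 2439 FPKM, 13 were lower, Mir136 and Mir376b being the exceptions, with a median of -2.52. Of the 15 at or below it, 4 were lower, 4 were higher and 7 were neither, and the median was 0.12. Across the 30 members measured in both tables, the Spearman correlation of wild type short RNA level and long RNA difference was -0.64. That of the wild type levels in both fractions was 0.68. Both are descriptions over members that share libraries and transcripts.

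Single members showed the size of the loss in long RNA. Mir543 stood at 143 FPKM in wild type and 0 in Drosha-deficient cells, or 98 and 0 fragments, at least 27.0-fold lower. Mir379 stood at 48.2 FPKM and 0, or 33 and 0 fragments, at least 9.09-fold lower. Mir381 (31.2 FPKM and 0) was at least 7.97-fold lower and Mir411 (25.7 FPKM and 0) at least 7.62-fold. Such a bound grows with the wild type level and does not rank the members by their loss. Mir323 (17.7 FPKM and 0) and Mir337 (13.1 and 0) were at least 4.03- and 3.98-fold lower. Mir665 (8.53 and 0) was 2.41-fold lower at the bound. Its intervals overlap at 8 (3.45 to 15.8) and 0 (0 to 3.69) fragments, but overlap alone does not test a difference. No interval was taken on the ratio of a row at 0. Mir300 stood at 37.0 and 5.23 FPKM, or 32 and 4 fragments, and Mir673 at 31.7 and 1.27 FPKM, or 28 and 1 fragments, a ratio of 24.9-fold (4.12 to 1019). Mir758 stood at 21.3 and 3.42 FPKM, or 15 and 2 fragments, 6.25-fold lower (1.45 to 56.3). Mir494 stood at 15.5 and 4.52 FPKM, or 12 and 3 fragments, 3.43-fold lower with an interval that spans no change (0.926 to 19.0). Of the rows with a shared interval, Mir127 stood at 402 and 93.2 FPKM, Mir433 at 80.6 and 17.2 FPKM, and Mir434 at 72.5 and 11.8 FPKM, each 4-fold lower or more. Mir495 (5.84 and 1.77 FPKM), Mir329 (3.02 and 0) and Mir539 (1.72 and 0) were also lower and rest on 4 fragments or fewer.

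The 8 members higher in long RNA were lower in level. Mir136 stood at 1.39 FPKM in wild type and 24.8 FPKM in Drosha-deficient cells, and Mir432 was at 0 and 10.6 FPKM; both belong to the shared interval. Mir654 stood at 5.29 and 20.2 FPKM, or 4 and 13 fragments, 3.81-fold higher (1.18 to 16.1). Mir3070b stood at 2.36 and 13.4 FPKM, or 2 and 10 fragments, 5.68-fold higher (1.21 to 53.3). Neither of these last intervals reached equal levels. Mir3070a stood at 4.73 and 14.8 FPKM, or 4 and 11 fragments, 3.12-fold higher with an interval that spans no change (0.926 to 13.5). Mir679 (6.88 and 15.4 FPKM), Mir666 (0.971 and 4.19) and Mir544 (0 and 1.89) rest on 7 fragments or fewer. Mir1193, just outside the 2-fold limit, stood at 6.92 and 13.9 FPKM, or 10 and 20 fragments. The others called neither were Mir493, Mir540, Mir431, Mir1197, Mir667, Mir376b and Mir487b, at 0.70 to 10.2 FPKM in both libraries. Mir882 and Mir299b were at 0 in both.

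In mRNA 9 of the 13 members of the Rtl1 span were higher in Drosha-deficient cells. The 22 measured members split into 14 higher, 7 lower and 1 neither, around a median of 1.42. Over the 14752 rows measured in that table, 8.64% were higher and 7.93% were lower; the median was 0.01. In the Rtl1 span 9 of 12 measured members were higher and 2 were lower; their median was 1.94. From Mir379 to Mir544 the 10 measured members split evenly, 5 higher and 5 lower, around a median of 0.07. Elsewhere in the genome 24 of 49 microRNA rows were higher and 17 lower (median 0.85).

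**Figure D4:**
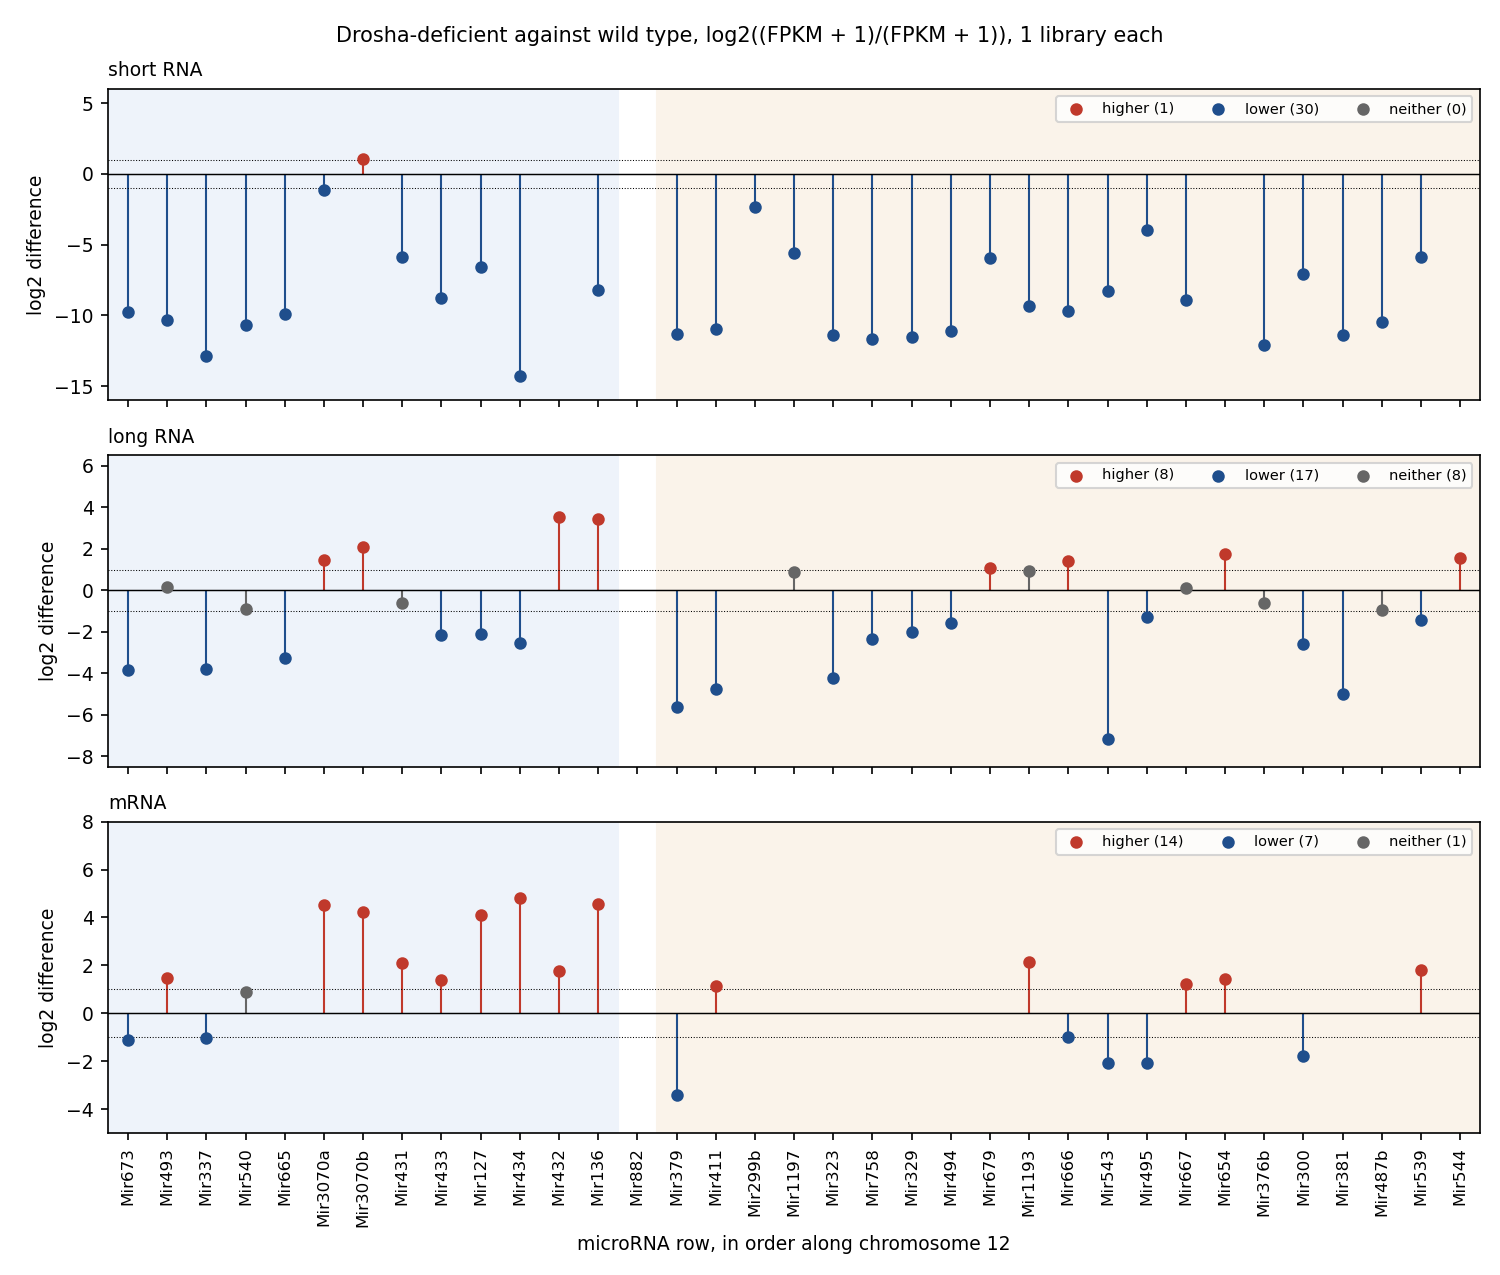
Difference between Drosha-deficient and wild type cells (y axis, log2 with 1 FPKM added) for each measured member in short RNA, long RNA and mRNA, in order along the chromosome. Red points are at least 2-fold higher, blue points at least 2-fold lower and grey points neither; in mRNA 9 of the 14 red points lie in the Rtl1 span.

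The 6 rows that share an interval with Rtl1 were all higher in mRNA, with a median of 3.11. Mir127 stood at 3.13 FPKM in wild type and 71.0 FPKM in Drosha-deficient cells, a difference of 4.12. Mir434 stood at 0 and 26.9 FPKM, Mir136 at 0 and 22.3 FPKM, and Mir432 at 0 and 2.44 FPKM. These 3 were listed at 0 in wild type, so no fold is given. Mir433 stood at 8.51 and 23.8 FPKM and Mir431 at 1.19 and 8.36 FPKM. The 6 rows are neighbours in 1 transcribed stretch and are not independent of each other. The Rtl1 row of the same interval was at 0 and 0.00608 FPKM in mRNA. The sources used here do not say whether the authors' counting used strand. Mir136 and Mir337 overlap the hairpins of Mir3071 and Mir3544 on the other strand by 62 and 61 bases, and Mir299b overlaps Mir299a by 49, so these reads may not be told apart.

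Beside them, Mir3070a stood at 0 FPKM in wild type mRNA and 22.2 FPKM in Drosha-deficient mRNA, or 0 and 15 fragments, at least 5.91-fold higher. Mir3070b stood at 0 and 17.7 FPKM, or 0 and 12 fragments, at least 4.73-fold higher. Mir1193 stood at 0.684 and 6.43 FPKM, or 1 and 9 fragments, 9.40-fold higher (1.30 to 412). Mir379 stood at 9.53 FPKM and 0, or 6 and 0 fragments, 1.59-fold lower at the bound. Its fragment intervals overlap (2.20 to 13.1 and 0 to 3.69), which alone does not test a difference. Mir540, the member called neither, stood at 4.26 and 8.67 FPKM. The other mRNA calls rest on very few fragments: of the 15 calls with an estimate, 13 had under 10 fragments in both libraries and 11 had at most 2. Those higher were Mir493, Mir411, Mir667, Mir654 and Mir539, all at 0 in wild type and at 1.21 to 2.54 FPKM in Drosha-deficient cells. Those lower, all at 0 in Drosha-deficient cells, were Mir673 (1.19 FPKM in wild type), Mir337 (1.04), Mir666 (1.0), Mir543 (3.18), Mir495 (3.18) and Mir300 (2.44). In summed fragments the 7 rows of the Rtl1 span went from 5 (1.62 to 11.7) to 33 (22.7 to 46.3). Of these 33, Mir3070a held 15 and Mir3070b 12, so the rise lay mostly in that similar pair and not across the block. The 21 rows from Mir379 to Mir544 held 14 in each library, with Mir379 (6 and 0) and Mir1193 (1 and 9) moving in opposite directions.

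Setting the fractions side by side, 6 members were lower in all 3: Mir673, Mir337, Mir379, Mir543, Mir495 and Mir300. The share of all rows with this or the following patterns was not computed, so the counts do not show whether they are unusual. In mRNA the call of Mir379 rests on 6 wild type fragments and those of the others on 1 or 2. Mir433, Mir127, Mir434, Mir411 and Mir539 were lower in short and long RNA and higher in mRNA. Of these, Mir411 and Mir539 rest on 1 fragment in mRNA. Mir539 also rests on 1 in long RNA, and its short RNA loss was not measurable at this depth. Mir3070a and Mir136 were lower in short RNA and higher in both others. Mir3070b, Mir432 and Mir654 were also higher in long RNA and mRNA. In short RNA Mir432 and Mir654 were not measured and Mir3070b had 1 fragment in each library, so a loss could not have been seen. The mRNA call of Mir654 rests on 1 fragment. The tables were normalized separately, so levels are not compared between fractions.

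The transcripts around the members differed among themselves. Meg3, the first noncoding RNA of the domain, stood at 353 FPKM in wild type and 191 FPKM in Drosha-deficient mRNA. Its long RNA levels were 48.3 and 52.6 FPKM and its short RNA levels 4.11 and 5.60 FPKM. None of these differences reached 2-fold. Rian, between the blocks, stood at 791 and 2325 FPKM in mRNA, in a row that joins 13 gene names. Its long RNA levels were 138 and 191 FPKM. In short RNA, where the Rian row also joins 13 names, it stood at 1168 and 1010 FPKM, called neither. Mirg, which follows Mir544 and holds 14 further microRNA genes, stood at 25.6 and 89.1 FPKM in mRNA. Long RNA gave 9.45 and 30.6 FPKM for it, and short RNA 1541 and 19.3 FPKM. Dlk1, a paternally expressed gene of the domain, was at 4.58 and 3.18 FPKM in mRNA, and Dio3 was under 1 FPKM in every library. Of the 9 genes of the region listed, 3 of 7 measured in mRNA were higher and 0 lower, 1 of 4 in long RNA was higher, and 2 of 4 in short RNA were lower.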

How the data were processed

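The authors deposited 1 Cuffdiff table per RNA fraction, with the FPKM of the wild type and the Drosha-deficient library in each row. The submitters' processing notes name TopHat2 2.0.10, Cufflinks 2.1.1, bcl2fastq 1.8.4 and the build GRCm38/mm10. Their settings, the annotation and any use of strand were not given in the sources used here. FPKM were used as deposited, with a pseudocount of 1 FPKM, a minimum of 1 FPKM in either library and a 2-fold call. Estimated fragments, and the alternatives built on them, were chosen after seeing the data. The setting called estimated fragments adds 1 fragment to each library and does not scale for depth, so a call lost there does not check the FPKM call. Read totals are not in the tables, so depth is known only through the value of 1 fragment. No p-value was computed, because there was 1 library per group. The members, the gene lists and the rule for named genes (every measured member in long RNA and mRNA; in short RNA the 10 most abundant, those at 0, those not lower, the extremes of the ratio and those sharing a seed or interval) were chosen with earlier results of these data known. Sequences came from RefSeq. The fragment estimates were tested on simulated data for wild type short and long RNA only. The calls were tested on simulated rows of at least 10 FPKM in wild type, without counting error. Low rows, where many members lie, were thus not covered by the test of the calls. Python 3.11.15, pandas 2.3.3, numpy 2.4.6, scipy 1.17.1 and matplotlib 3.10.9 were used. Not analysed here were the 3 methylation samples and, from Dnmt1-deficient cells, 3 RNA samples.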

Additional observations from a re-analysis of the deposited data

Results flagged for a closer look

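The members that moved in opposite directions in 2 fractions are given here as log2 differences. None of these contrasts between fractions was tested, since there was 1 library per genotype and fraction. The share of all rows with such a contrast was not computed. Of 20 members measured in short RNA and mRNA, 11 were lower in the first and higher in the second, and 7 of these lay in the Rtl1 span. Their mRNA differences were 4.80 for Mir434, 4.54 for Mir136, 4.53 for Mir3070a, 4.12 for Mir127, 2.09 for Mir431, 1.48 for Mir493 and 1.38 for Mir433. Those of the other 4 were 2.14 for Mir1193, 1.82 for Mir539, 1.23 for Mir667 and 1.15 for Mir411. Mir493, Mir539, Mir667 and Mir411 rest on 1 fragment each, Mir1193 on 9 and Mir3070a on 15 in the fuller library. In short RNA the same members differed by -1.13 (Mir3070a) to -14.26 (Mir434).

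Higher in long RNA and lower in short RNA were 4 of the 30 members measured in both. Their long RNA differences were 3.43 for Mir136, 1.46 for Mir3070a, 1.40 for Mir666 and 1.06 for Mir679. Mir666 rests on 4 fragments and Mir679 on 7 in the fuller library. Counted in fragments, which are not scaled for depth, Mir679 is under the 2-fold limit. In long RNA 1 fragment of a 74-base row was worth 1.72 FPKM in wild type and 2.20 FPKM in Drosha-deficient cells, so this count does not check the FPKM call.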

How the results depend on the processing

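No median changed sign, though the mRNA median was 0 with no minimum. No call of a single member turned to the other direction in the settings recomputed per member (both pseudocounts, both scalings and estimated fragments); the cause of the changes below was not tested. In short RNA the count of lower members stayed at 23 to 30. The median was -11.43 and -7.92 with pseudocounts of 0.1 and 5 FPKM, -9.72 with a minimum of 5 FPKM, -8.90 with none, -9.75 with the shared interval counted once, -7.73 in estimated fragments and -10.30 over members with at least 10 fragments. The 1 higher member became 0 with a pseudocount of 5, a 4-fold call, estimated fragments or at least 10 fragments. In long RNA these settings gave medians of -1.67, -0.52, -2.10, -0.96, -1.37, -1.0 and -3.21, and scaling on protein-coding rows gave -1.28. Higher members numbered 5 with a pseudocount of 5 and 3 with a 4-fold call; with at least 10 fragments 3 were higher and 10 lower. In mRNA the same 7 settings gave medians of 3.39, 0.50, 3.13, 0, 1.15, 0.79 and 4.38, and scaling on protein-coding or on non-microRNA rows gave 1.40 and 1.37. Higher and lower members in mRNA were 8 and 1 with a pseudocount of 5 and with a minimum of 5 FPKM, 7 and 3 with a 4-fold call, and 2 and 0 with at least 10 fragments. With the shared interval counted once 9 of 17 were higher and 7 lower. In estimated fragments 8 of 16 were higher and 7 lower. Scaling on non-microRNA rows moved the median of all short RNA rows from -0.03 to 0.20. No paired analysis was possible because each genotype had 1 library per fraction. Leaving out a replicate was not possible either.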

Other observations

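The interval also holds 8 small nucleolar RNA rows in the gap between the blocks, chosen after their values were seen. In mRNA 7 of the 8 were higher in Drosha-deficient cells and 0 lower, with a median of 2.78. Over all rows measured in mRNA 8.64% were higher and 7.93% lower. AF357341 (chr12:109681519-109681593) stood at 5.55 and 119 FPKM and AF357428 (chr12:109679945-109680013) at 13.7 and 179 FPKM. Gm25856, Gm25854 and Gm22205 were at 0 in wild type and at 12.2, 11.1 and 2.91 FPKM in Drosha-deficient cells. There 1 fragment of a 72-base row was worth 2.77 FPKM, so these calls rest on few fragments. In long RNA 1 was higher and 1 lower, with a median of -0.12, against 6.26% higher and 6.89% lower over all measured rows. In short RNA all 8 were listed at 0 in both libraries.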
